A study of Mus musculus with 22 samples.

Results

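The comparison follows trisomic male germ cells of the mouse across the exit from meiosis, from mid-late-pachytene spermatocytes to spermatids. A gene was a member when its mean log2 intensity reached 4 in the trisomic spermatocytes or in the trisomic spermatids, which held for 8712 of the 15780 named genes on the array. Of these, 7618 reached 4 in both cell types, 640 only in the spermatids and 454 only in the spermatocytes. On this scale a difference of 1 is a 2-fold change.

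The study compared Ts43H males, in which the centromere-proximal part of chromosome 17 is present in 1 extra copy, with their t121/D17 euploid brothers, all aged 2 months. Germ cells were sorted by fluorescence from a suspension of testicular tubule cells, so each population is a gate that can also hold neighbouring stages. RNA of liver and of sorted spermatocytes, pre-mid-pachytene and mid-late-pachytene, and spermatids was hybridised to 22 arrays, and the 20 to 30 ng of total RNA behind each was amplified in 2 cycles. The results below rest on 2 arrays of Ts43H mid-late-pachytene spermatocytes and 3 arrays of Ts43H spermatids, with the same numbers of t121/D17 arrays beside them. No breakpoint of the extra segment is given in the labels, and the first 30 Mb of chromosome 17 stand for it here. Whether each array had its own animal is not stated either, so p-values measure a spread between arrays only. For each gene that spread is pooled over all 22 arrays, liver included, and can differ from that of the compared arrays.

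In pachytene the homologous chromosomes are fully paired, crossovers mature, and the X and Y chromosomes are silenced inside a separate chromatin domain, the sex body. After the meiotic divisions the round spermatid builds an acrosome, the vesicle that later meets the egg, and a flagellum. The elongating spermatid then replaces its histones, first with transition proteins and then with protamines. Much of the RNA behind these steps is made well before its protein and stored. In sorted bulk RNA, fewer cells of a type and less RNA per cell cannot be told apart.

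Across genes, which are not independent replicates, the trisomic spermatocyte arrays had r = 0.996 with each other and the spermatid arrays 0.993 to 0.994. The median over all genes was 4.21 and 4.23 on the spermatocyte arrays and from 4.42 to 4.54 on the spermatid arrays. Hepatocyte, Leydig cell and endothelial marker lists had no member with a mean of 4 or above in either trisomic cell type. Among 5 tested Sertoli cell markers limma called none, and 2 had an unadjusted p below 0.05. Of 5 macrophage markers on the array 4 stayed below 4 in both cell types, and the fifth, Adgre1, rose by 2.22 ± 0.31 (SE).

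Markers of round and elongating spermatids were higher on the spermatid arrays, while pachytene markers went both ways. The median of 9 round spermatid markers was 9.40 and 9.76 on the spermatocyte arrays and 13.68, 13.27 and 13.55 on the spermatid arrays, and 8 of the 9 rose. For 9 elongating spermatid markers the median was 10.61 and 10.87 against 14.80, 14.45 and 14.90, and all 9 rose. These elongating markers were also high on the pre-mid-pachytene arrays, at 13.88, 14.35 and 14.74, which lies against that label, so values from those arrays are given below only beside a result. The median of 7 pachytene markers was 14.47 and 14.41 in the spermatocytes and 14.20, 13.96 and 13.97 in the spermatids. Of these, 2 rose (Pgk2, 1.19, and Ccna1, 0.36), 1 fell (Piwil1, -3.52) and 4 were not called. Of 6 tested markers of early meiotic prophase 4 fell and 1 rose. Over all 8712 tested genes, by the test given below, 29.1% rose and 35.4% fell.

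With limma and Benjamini-Hochberg adjustment at 0.05, 2531 genes (29.1% of the 8712 tested) rose from spermatocyte to spermatid and 3086 (35.4%) fell, together 64.5%, while 3095 were not called. Rises were the larger changes. At a change of at least 1 the counts were 1986 (22.8%) and 2091 (24%), at 2 they were 1358 and 813, at 4 they were 533 and 107, and at 6 they were 53 and 3. The median change of all tested genes was -0.13. Arrays of the 2 cell types did not overlap for 6871 genes (78.9%). A gene tested only because it reached 4 in the spermatids could hardly fall: of those 640, 570 rose and none fell, and of the 454 that reached 4 only in the spermatocytes, 374 fell and none rose. Among genes at 4 or above in both, 1961 rose and 2712 fell. In trisomic liver, 47.3% of the genes that rose (1198 genes) had a mean below 4, against 17.4% of those that fell (536) and 27.6% of all tested (2406).

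**Figure D1:**
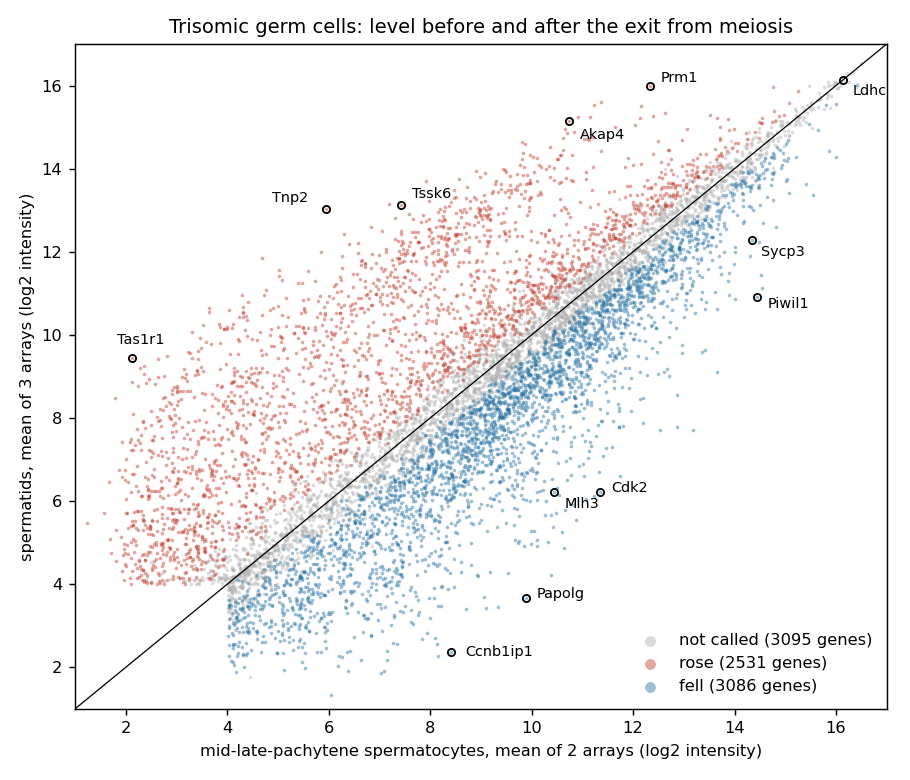
Mean log2 intensity of the 8712 tested genes in trisomic mid-late-pachytene spermatocytes (x axis, 2 arrays) and spermatids (y axis, 3 arrays), with genes that rose in red, fell in blue and were not called in grey. The red points reach farther from the line of equal levels than the blue ones, with 533 rises and 107 falls of at least 4.

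Where a group lies in the background range below 3, the size of a change is a lower limit, and the order of such changes is not settled. The largest fitted rise among annotated genes was that of Tas1r1, a taste receptor subunit, with 2.13 and 2.10 in the spermatocytes and 9.83, 9.19 and 9.28 in the spermatids. Its change was 7.32 ± 0.53 (SE, adjusted p 1.3e-08), from the background range below 3 to a high level on all 3 arrays. Ubqlnl, a ubiquilin-like gene, had 5.81 and 3.56 against 11.74, 11.66 and 12.12, a change of 7.15 ± 0.46 (SE), or 8.27 without spermatocyte array 1, above that of Tas1r1. The next were Tnp2, Plbd1, Glt6d1, Tex55, BC048562, Ubqln5, Trim42 and Tmco5b, with changes between 6.72 and 7.07. Genes already at 6 or above in the spermatocytes rose by up to 6.13, the change of the alpha-tubulin gene Tuba8. They included Cabs1, a calcium-binding protein of the spermatid (5.96), Fscn3, the testis fascin that bundles actin (5.79), Oxct2a, a testis enzyme of ketone body use (5.78), and Fam71b (5.76). The 2 spermatocyte arrays of Tuba8, 7.46 and 5.13, lay farther apart than its 3 spermatid arrays, at 12.51, 12.38 and 12.37.

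Papolg, a poly(A) polymerase, fell most, from 9.95 and 9.81 to 4.41, 2.63 and 3.97, a change of -6.21 ± 0.49 (SE, adjusted p 3.3e-08). Ccnb1ip1, also known as Hei10, a ligase needed to turn recombination intermediates into crossovers, had 8.69 and 8.13 in the spermatocytes and 2.42, 2.37 and 2.31 in the spermatids. Its fitted change was -6.04 ± 0.42 (SE), a lower limit in size, since its spermatid arrays lay in the background range. Lin52, a subunit of the DREAM and MuvB complexes, fell by 6.17 (SE 0.56). Trim32, Mesp2, Kbtbd6, Dnajc12, Pcdh8, Gxylt1 and Susd5 followed with changes between -5.90 and -5.36. Falls of genes that kept a mean of at least 6 in the spermatids reached -5.14 in Pou5f2, a POU-domain factor of the testis. Sap30, a subunit of the Sin3 histone deacetylase complex, changed by -5.07, and its arrays read 13.12 and 12.59 against 7.38, 8.35 and 7.62.

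Genes that package the sperm nucleus mostly rose. Of 22 tested members of the list of protamines, transition proteins and spermatid chromatin factors, 13 rose and 5 fell, with a median change of 2.71. These shares, 59.1% and 22.7%, stand against 29.1% and 35.4% of all tested genes. Tnp2, the transition protein that binds DNA through zinc, had 6.24 and 5.67 in the spermatocytes and 12.94, 12.04 and 14.10 in the spermatids, and its change of 7.07 ± 0.50 (SE, adjusted p 1.1e-08) was the largest of the list. Tnp1, the other transition protein, had 11.31 and 11.15 against 15.44, 15.18 and 15.99, a rise of 4.31 ± 0.61 (SE). Protamine genes rose as well: Prm1 changed by 3.66 ± 0.85 (SE, adjusted p 0.0014), Prm2 by 4.84 ± 0.63 and Prm3 by 4.40 ± 0.62. Prm1 read 12.84 and 11.81 in the spermatocytes, so its transcript was well above background there, and 15.99, 15.81 and 16.16 in the spermatids. On the pre-mid-pachytene arrays Prm1 had a mean of 15.91 ± 0.14 (SD, n = 3), beside the high elongating spermatid markers of those arrays.

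Other rises of this group were in Hmgb4, a high mobility group protein of spermatids (5.17), H1f7, the linker histone H1T2 of the spermatid nucleus (5.06), and H2al2a, a short histone variant that loosens nucleosomes for the transition proteins (4.53). The remodeller Chd5 rose by 2.92, the kinase Camk4 by 2.50 and the deacetylase Hdac11 by 3.44. Members that fell were H3f3b, which encodes the replacement histone H3.3 (-3.42), Epc1 and Kat5 of the NuA4 acetyltransferase (-1.26 and -0.97), Parp11 (-1.23) and Rnf8, a ubiquitin ligase (-0.72). The count of falls was 3 without spermatid array 1 or without spermatocyte array 1. H1f6, the testis linker histone, stood at 3.70 and 4.20 against 3.68, 4.86 and 5.50 and was not called (0.73 ± 0.45 SE, adjusted p 0.169). Without spermatid array 1 it was called, at 1.23 (adjusted p 0.0147).

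**Figure D2:**
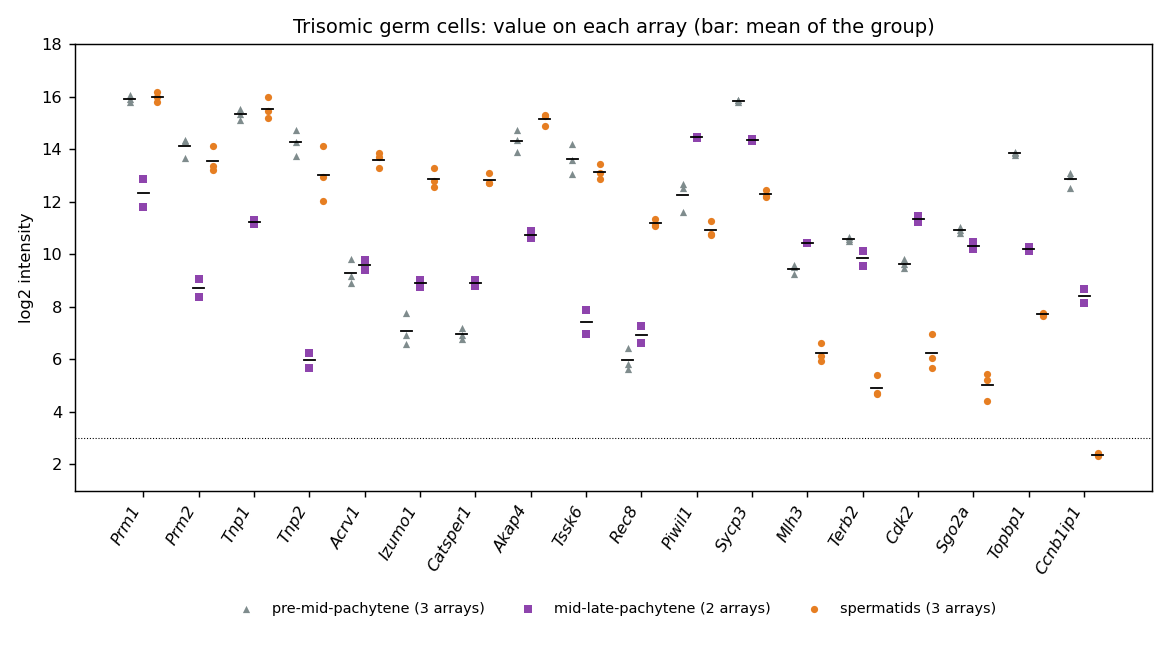
Log2 intensity (y axis) of 18 genes on every trisomic germ cell array, with pre-mid-pachytene arrays as triangles, mid-late-pachytene arrays as squares, spermatid arrays as circles, group means as bars and the upper end of the background range, 3, as a dotted line. From Prm1 to Rec8 the circles lie above the squares, and from Piwil1 to Ccnb1ip1 below them. For the protamine and transition protein genes, Akap4 and Tssk6 the triangles lie near the circles.

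The acrosome list held 53 tested members, of which 35 rose and 4 fell, with a median change of 3.49. Rises made up 66% and falls 7.55%, against 29.1% and 35.4% of all tested genes. Acrv1, a protein of the acrosomal matrix, had 9.40 and 9.76 in the spermatocytes and 13.68, 13.27 and 13.84 in the spermatids (4.02 ± 0.36 SE, adjusted p 1.1e-07). Izumo1, the sperm protein that binds the egg receptor Juno, had 8.77 and 9.01 against 13.26, 12.56 and 12.77 (3.98 ± 0.57 SE, adjusted p 1.5e-05). Spaca1, needed to form the acrosome, was high in both, with 12.62 and 12.66 against 15.49, 15.35 and 15.16, and rose by 2.70 ± 0.47 (SE). The groups did not overlap for any of the 3, as for 78.9% of all tested genes.

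Rises in this list ran across the steps of fertilisation. Spam1, a hyaluronidase of the sperm surface, rose by 3.75, the fusion factors Spaca6 by 3.93, Dcst1 by 5.38 and Dcst2 by 4.22, and the protease-like gene Prss37 by 5.63. Structural genes of the head rose too: Actrt2 by 4.83, Actl7a by 3.96, Capza3, an actin-capping subunit, by 4.32, and Cylc1, an X-linked cylicin of the perinuclear theca, by 3.85. Calr3 and Pdilt, testis chaperones through which surface proteins fold, rose by 4.80 and 4.47. Dcst1 rose from the background range, with 2.06 and 2.16 against 8.05, 7.30 and 7.10.

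Some well-known acrosomal genes were already near their spermatid level. Acr, the protease acrosin, had 12.74 and 13.24 in the spermatocytes and 13.54, 13.15 and 13.90 in the spermatids, overlapping groups that were not called (0.54 ± 0.26 SE, adjusted p 0.0764). It was called without spermatid array 2 (0.73, adjusted p 0.025), without spermatocyte array 2 (0.79, adjusted p 0.0463) and with the replicate block (0.48, adjusted p 0.0484). Others not called were Zpbp2, Spata16, Crisp2, Adam3, Adam5, Adam18 and Clgn, with changes between -0.49 and 0.17. Gopc, a Golgi protein needed for acrosome formation, fell by 2.59, Tex101, a surface protein of germ cells, by 1.99, Ly6k by 0.46 and Adam2 by 0.41.

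Of 67 tested flagellum and motility genes 35 rose and 9 fell, with a median change of 0.57. That is 52.2% and 13.4%, against 29.1% and 35.4% of all tested genes. Odf1, a protein of the outer dense fibres, had 10.99 and 11.09 against 14.80, 14.45 and 14.90 (3.68 ± 0.34 SE, adjusted p 1.3e-07). Akap4, the X-linked scaffold of the fibrous sheath, had 10.61 and 10.87 against 15.27, 14.86 and 15.28 (4.40 ± 0.30 SE, adjusted p 8.0e-09). Its partners Akap3, Cabyr and Ropn1 rose by 3.55, 4.15 and 3.85, and Smcp, a cysteine-rich protein of the mitochondrial sheath, by 3.38.

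Genes of the sperm ion channels showed both patterns. Catsper1, the pore subunit of the calcium channel of sperm, had 8.78 and 9.02 against 13.10, 12.69 and 12.70 (3.93 ± 0.44 SE). Catsper3 rose by 3.58 and Kcnu1, the potassium channel SLO3, by 3.02. Lrrc52, the auxiliary subunit of that potassium channel, had 1.78 and 1.79 against 8.66, 8.11 and 8.64, and rose by 6.68 ± 0.47 (SE). Catsper2, another pore subunit, fell by 0.40, and Catsperd (-0.18) and Catsperz (0.26) were not called.

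Members tied to the axoneme, the microtubule core of the tail, went both ways. The dynein heavy chains Dnah1, Dnah2 and Dnah8 fell by 0.91, 1.52 and 0.84, Ccdc39 by 0.77, Spag6l by 0.45 and the transport gene Ift20 by 1.5. The dynein genes Dnali1, Dnaic1 and Dnaic2 rose by 1.04, 0.64 and 0.52, Spag17 by 0.77, Cfap69 by 0.54, Ak8 by 1.21 and Ttll9, which modifies tubulin, by 3.36. Hydin, Drc1, Spag16, Rsph1, Rsph9, Ift88 and Ift140 were not called, with changes between -0.43 and 0.23. The count of falls in this list was 5 without spermatocyte array 2. Of the tektins, Tekt2, Tekt4, Tekt3 and Tekt5 rose by 2.18, 1.74, 0.98 and 0.8, and Tekt1 was not called at 0.73. Odf2, at 15.42 and 15.50 in the spermatocytes and 16.07, 15.90 and 16.02 in the spermatids, did not pass (0.54 ± 0.23 SE, adjusted p 0.0521). It passed after quantile normalization (adjusted p 0.0478), with the 16 germ cell arrays (0.0247) and with the 5 compared arrays alone (0.0042). The highest value of the whole table was 16.75, so genes of that level had little range left above them.

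All 7 genes of the testis-specific serine kinase group rose, against 29.1% of all tested genes, with a median change of 4.43. These kinases act in spermatids, and their loss is known to disturb sperm shape and fertility. Tssk6 had 7.89 and 6.97 in the spermatocytes and 13.08, 12.86 and 13.45 in the spermatids (5.70 ± 0.37 SE, adjusted p 3.8e-09). Tssk5 rose from 2.65 and 3.37 to 8.97, 8.90 and 8.44 (5.76 ± 0.37 SE). It reached a mean of 4 in the spermatids alone, so that its rise was close to given. Tssk2, Tssk3 and Tssk4 changed by 4.73, 4.43 and 4.22, their substrate Tsks by 3.73 and Tssk1, the smallest change of the group, by 3.43. On the pre-mid-pachytene arrays Tssk6 lay between 13.0 and 14.2 while Tssk5 was at 2.2 on all 3.

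The list of energy metabolism had 26 tested members, 7 of which rose and 5 fell, at a median change of 0.08. Its share of rises, 26.9%, was near the 29.1% of all tested genes, and its share of falls was 19.2% against 35.4%. Gapdhs, the glycolytic enzyme of the sperm tail, had 10.19 and 10.08 against 14.12, 13.80 and 14.35 (3.96 ± 0.44 SE, adjusted p 1.1e-06). Pkm, a pyruvate kinase, rose by 3.54, Gpd2, a mitochondrial glycerol phosphate dehydrogenase, by 3.09 and Slc16a7, a monocarboxylate carrier, by 1.78. Ldhc, the testis lactate dehydrogenase, was at 16.15 and 16.14 against 16.14, 16.11 and 16.12, near the top of the scale, and was not called (-0.02 ± 0.69 SE). Slc2a3, the glucose transporter GLUT3, fell from 15.82 and 15.91 to 14.33, 14.57 and 14.38 (-1.44 ± 0.28 SE). Testis forms of the respiratory chain fell by about as much: Cyct, the testis cytochrome c, by 1.16, Cox8c by 1.15 and Cox7b2 by 0.99, whereas Cox6b2 rose by 0.98.

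**Figure D3:**
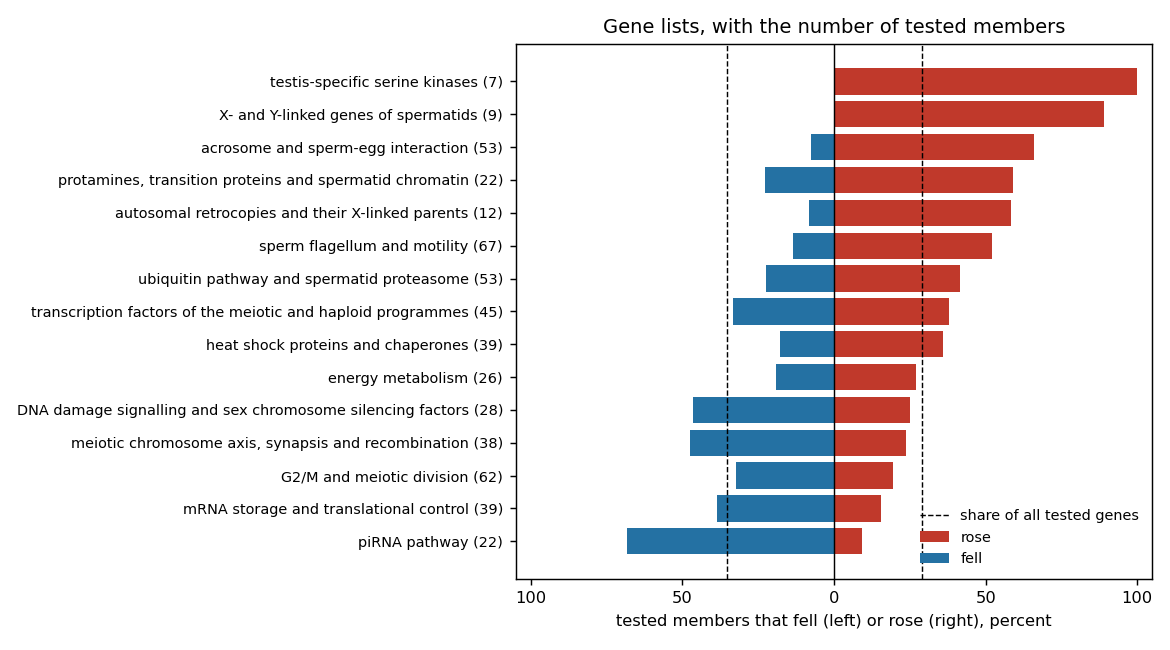
Percent of the tested members of 15 gene lists that rose (red, to the right) or fell (blue, to the left), with the number of tested members in brackets and dashed lines at the shares of all tested genes, 29.1% and 35.4%. The kinase list lies at 100% on the right, and the piRNA pathway has the widest bar on the left, with 15 of 22 members.

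Of 38 tested genes of the meiotic chromosome axis, synapsis and recombination 18 fell (47.4%, against 35.4% of all tested genes) and 9 rose (23.7% against 29.1%). Their median change was -0.69, and -0.06 over all 45 members on the array, tested or not. Sycp3, a core protein of the chromosome axis, had 14.38 and 14.31 against 12.16, 12.46 and 12.22 (-2.07 ± 0.14 SE, adjusted p 5.4e-09). Mlh3, which resolves crossovers, had 10.44 on both spermatocyte arrays and 5.94, 6.11 and 6.62 in the spermatids (-4.21 ± 0.28 SE). Terb2, which ties telomeres to the nuclear envelope, changed by -4.93 and Spo11, which cuts the DNA to start recombination, by -1.0. Sycp1, the transverse filament, had 9.49 on both spermatocyte arrays against 9.45, 9.16 and 9.39 and was not called (-0.16 ± 0.23 SE). Its level on the pre-mid-pachytene arrays was 14.2, 14.2 and 14.0.

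Not all genes with a meiotic name fell. Rec8, the meiotic cohesin subunit, had 6.60 and 7.27 in the spermatocytes and 11.08, 11.11 and 11.33 in the spermatids, a rise of 4.24 ± 0.34 (SE, adjusted p 3.2e-08). On the pre-mid-pachytene arrays Rec8 lay between 5.6 and 6.4. The X-linked recombination gene Tex11 rose by 4.23, Tex15 by 3.77, Syce2, a part of the central element, by 3.24, and Msh4, which stabilises crossover intermediates, by 2.48. Stag3, another meiotic cohesin subunit, was not called at 0.07.

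For the machinery of the G2/M transition and division, 62 genes were tested, of which 20 fell and 12 rose, with a median change of -0.33 (-0.27 over all members on the array). Its share of falls, 32.3%, was near that of all tested genes. Cdk2, a kinase that sits at crossover sites and telomeres in pachytene, had 11.46 and 11.23 against 5.66, 6.97 and 6.06 (-5.12 ± 0.43 SE, adjusted p 5.4e-08). Sgo2a, which guards centromere cohesion through the first division, changed by -5.30, and Ccne2, a cyclin partner of Cdk2, by -5.04. Mad2l1, Kif11 and Aurkb, genes of the spindle and its checkpoint, changed by -3.23, -2.75 and -2.45. Cdk1, the kinase that drives entry into division, had 11.63 and 11.52 against 9.65, 9.60 and 9.75. It passed with -1.91 ± 0.67 (SE, adjusted p 0.021) and did not pass without spermatocyte array 1 (-1.85, adjusted p 0.0882) or 2 (-1.96, adjusted p 0.0708).

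Several activators of division rose in the same list. Cdc25c, the phosphatase that activates Cdk1, had 7.71 and 8.12 against 10.29, 10.32 and 10.26 (2.37 ± 0.19 SE). Mastl, which holds back an opposing phosphatase, rose by 2.47, and Lmnb2, which encodes the lamin B2 gene product and its germ cell form, by 4.11. Ccna1, the meiotic cyclin A, was called at 0.36 ± 0.13 (SE, adjusted p 0.0231), with 13.50 and 13.53 against 13.86, 13.99 and 13.76. That small change passed neither after quantile normalization nor after centring (0.24 and 0.20), nor without spermatid array 2 (0.30), spermatocyte array 1 (0.35) or spermatocyte array 2 (0.38). Plk1, Aurka, Cdc20 and Top2a were not called, at 0.49, -0.39, -0.26 and -0.54.

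DNA damage signalling and the factors of sex chromosome silencing had 28 tested members, with 13 falls and 7 rises. The falls made up 46.4%, against 35.4% of all tested genes, and the rises 25% against 29.1%. The median change was -0.36 (-0.22 over all members on the array). Topbp1, which activates the kinase ATR at unpaired axes, had 10.27 and 10.13 against 7.73, 7.75 and 7.66 (-2.48 ± 0.33 SE, adjusted p 6.8e-06). Mdc1, which spreads the damage mark into chromatin loops, changed by -1.14 ± 0.23 (SE). Of the ring-shaped 9-1-1 clamp, Rad1 changed by -5.15, from 7.65 and 8.01 into the background range at 2.74, 2.72 and 2.59, Rad9a by -1.05, Rad9b by -1.39 and Hus1 by -0.86. H2ax, the histone that carries the mark, had 10.21 and 10.29 against 10.79, 10.69 and 10.75 and was not called (0.50 ± 0.22 SE, adjusted p 0.0628). These groups do not overlap, which held for 78.9% of all tested genes. The 5 arrays fitted alone with limma gave a call (adjusted p 0.0023). Scml2 and Zfy2, both sex-linked, rose by 1.37 and 3.18. The other rises were those of Usp7 (1.68), Brca1 (1.52), Rad17 (1.21), Chek1 (1.12) and Smarcad1 (1.03). The count of falls was 8 without spermatid array 1 and 7 without spermatocyte array 1.

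The piRNA pathway, which makes the small RNAs that silence transposons and cleave transcripts in pachytene cells, had the highest share of falls of the 15 lists. Of its 22 tested members 15 fell (68.2%, against 35.4% of all tested genes) and 2 rose (9.09% against 29.1%), at a median change of -1.14. Piwil1, the Piwi protein of pachytene cells, had 14.47 and 14.41 against 10.73, 11.26 and 10.76 (-3.52 ± 0.39 SE, adjusted p 1.0e-06). Piwil2 had 13.08 and 13.00 against 10.61, 10.86 and 10.40 (-2.42 ± 0.20 SE). Tdrd5, a Tudor protein of the germ granules, changed by -5.02, Pld6, a nuclease of the mitochondrial surface, by -2.68, and Stk31 by -2.67. Mov10l1, Tdrd1, Tdrd9, Tdrd12, Henmt1 and Pnldc1 fell by between 0.80 and 2.06.

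Exceptions among the piRNA genes were few. Gtsf1l rose from 7.45 and 7.23 to 11.91, 11.62 and 12.05 (4.52 ± 0.47 SE). Tdrd7, which shapes the chromatoid body of spermatids, was called at 0.40, and the count of rises was 1 without spermatid array 1, spermatid array 2 or either spermatocyte array. Mael had 16.04 and 15.93 against 16.04, 16.04 and 16.06, Ddx4 changed by -0.02 and Asz1 by 0.03, and none of these was called.

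Transcription factors of the meiotic and haploid programmes had 17 rises and 15 falls among 45 tested members and a median change of 0.00. All tested genes were split too: the shares were 37.8% and 33.3% in the list, and 29.1% and 35.4% over all of them. Tbpl1, a relative of the TATA-binding protein needed in early spermatids, had 13.06 and 13.20 against 11.10, 11.19 and 10.93 (-2.05 ± 0.16 SE, adjusted p 2.0e-08). Mybl1, the master factor of pachytene transcription, had 5.56 and 6.31 against 3.79, 3.76 and 3.65 (-2.20 ± 0.35 SE), and Sox30, which turns on haploid genes, changed by -1.06. Rfx2, which drives genes of cilia and spermatids, had 10.66 and 10.91 against 11.66, 11.61 and 11.91 (0.95 ± 0.24 SE, adjusted p 0.0029). Its relatives Rfx1 and Rfx3 rose by 4.58 and 4.27.

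Crem, the activator of many spermatid genes, had 9.01 and 8.77 against 8.41, 8.60 and 8.13 and was not called (-0.51 ± 0.22 SE, adjusted p 0.0561). It was called without spermatid array 2 (-0.62, adjusted p 0.0374), after centring (-0.67, adjusted p 0.0219), with the replicate block (-0.34, adjusted p 0.0142) and with the 16 germ cell arrays (adjusted p 0.0495). Its coactivator Fhl5, also named ACT, had 8.13 and 8.27 against 13.12, 12.67 and 13.32 (4.84 ± 0.35 SE, adjusted p 1.1e-08). Kif17, the motor that moves this coactivator out of the nucleus, rose by 3.88, and Taf7l, a germ cell subunit of the basal factor TFIID on the X, by 4.81. Taf7, the broadly expressed paralogue of Taf7l, fell by 2.30.

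Promoters of 7176 tested genes were found in the RefSeq table of 250 bases before to 50 bases after each start, on GRCm38.p6. A gene was counted for a motif when any of its promoters held the letters. The full cAMP response element, TGACGTCA, to which Crem binds, was held by 4.23% of the genes that rose and 3.25% of those that fell. It was held by 3.93% of those not called, 3.78% of all tested genes and 2.03% of all 27025 genes of the table. Of the promoters of rising genes named in the lists, 3 with this element are shown. They were picked because they belong to an egg-binding protein, the motor that carries the Crem coactivator and a tail protein. Anapc10 (1.4) and Cenpe (0.77), also rising genes of the lists, carry the element too and are not shown. The 3 shown are on the plus strand, from 40 bases before the element onwards, with the element in capitals.
Izumo1, chr7:45621675-45621762, 96 to 89 bases before the start: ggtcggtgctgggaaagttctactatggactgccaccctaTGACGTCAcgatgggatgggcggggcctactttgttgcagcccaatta
Kif17, chr4:138262125-138262212, 86 to 79 bases before the start: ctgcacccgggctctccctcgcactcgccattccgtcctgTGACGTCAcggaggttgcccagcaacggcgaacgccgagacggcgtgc
Spag4, chr2:156065136-156065212, 37 to 30 bases before the start: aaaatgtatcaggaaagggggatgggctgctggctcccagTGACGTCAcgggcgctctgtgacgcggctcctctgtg
These genes rose by 3.98, 3.88 and 4.20. A match describes the letters of the window only.

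The core of the X-box, GTTGCC, which RFX factors read, was held by 21% of the genes that rose and 13.9% of those that fell. It was held by 15.7% of those not called and 14.1% of all genes of the table. In the longer form any 2 bases, GG, any base and AAC follow the core. Its shares were 0.951%, 0.633%, 0.314% and 0.355%, or 20, 16, 8 and 96 genes. TATAAA was found for 9.99%, 7.56%, 8.40% and 15.7% of genes in the same order. All motifs were searched on both strands. The median ratio of observed to expected CpG was 0.73 in the promoters of genes that rose, 0.84 in those that fell, 0.81 in those not called and 0.41 over all promoters of the table.

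Of 39 tested genes of mRNA storage and translational control 15 fell and 6 rose, with a median change of -0.12, and 0.00 over all members on the array. The share of falls, 38.5%, was near the 35.4% of all tested genes. Upf1, the helicase of nonsense-mediated decay, had 10.71 and 10.61 against 5.91, 5.75 and 5.72 (-4.87 ± 0.33 SE, adjusted p 6.7e-09). Tsn, which binds RNA as translin, and its partner Tsnax changed by -2.97 and -1.66. Paip2b, which holds back poly(A)-binding protein, had 8.07 and 8.09 against 11.21, 11.66 and 10.61 (3.08 ± 0.30 SE), and Nxf2, an X-linked mRNA export factor, rose by 5.66. Ybx2 and Ddx25, which store and move spermatid mRNA, and Boll and Dazl were not called, with changes of 0.05, 0.12, 0.00 and 0.34. Papolb, the testis poly(A) polymerase, had 13.65 and 13.48 against 14.03, 14.14 and 13.65 (0.37 ± 0.20 SE, adjusted p 0.1257), and without spermatid array 3 it was called at 0.52 (adjusted p 0.0467).

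The ubiquitin pathway and spermatid proteasome list had 22 rises and 12 falls among 53 tested genes, with a median change of 0.21. Its shares were 41.5% and 22.6%, against 29.1% and 35.4% of all tested genes. Rnf133, a ligase of the endoplasmic reticulum in spermatids, had 8.15 and 7.57 against 13.08, 12.70 and 12.89 (5.03 ± 0.38 SE, adjusted p 2.0e-08). Klhl10, an adaptor of the CUL3 ligase, had 12.02 and 12.28 against 15.63, 15.46 and 15.44 (3.36 ± 0.47 SE). The X-linked ligases Huwe1 and Cul4b rose by 4.94 and 4.09, while Cul4a, the autosomal relative of Cul4b, fell by 1.47. Psma8, the proteasome subunit of germ cells, had 13.86 and 13.94 against 11.37, 11.61 and 11.47 (-2.42 ± 0.62 SE, adjusted p 0.0029). Ube2b, which helps the removal of histones, was called at -0.33 ± 0.12 (SE, adjusted p 0.0238). That call was lost without spermatid array 2 or 3 (both -0.31) and without spermatocyte array 1 (-0.35) or 2 (-0.30).

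Among 39 tested chaperones 14 rose and 7 fell, at a median change of 0.20. Rises made up 35.9% and falls 17.9%, against 29.1% and 35.4% of all tested genes. Hspa1l, the spermatid heat shock protein on chromosome 17, had 9.79 and 9.07 against 13.87, 14.09 and 13.98 (4.55 ± 0.35 SE, adjusted p 2.1e-08). Dnajb7 and Dnajb8 rose by 5.32 and 5.01. Hspa2, the pachytene heat shock protein, had 14.62 and 14.88 against 14.24, 13.83 and 13.97 and was not called (-0.74 ± 0.41 SE, adjusted p 0.131). Its groups do not overlap, which held for 78.9% of all tested genes. In limma Hspa2 was called with the 16 germ cell arrays (adjusted p 0.0023) or the 5 compared arrays alone (0.0188). Dnajb3 was called at 0.68 ± 0.24 (SE, adjusted p 0.02), and the call was lost without spermatid array 3 (0.56), without spermatocyte array 1 (0.61), after quantile normalization (0.56, adjusted p 0.0614) and with the replicate block (0.58, adjusted p 0.0668). Broadly expressed members were mixed. Dnaja1, Canx, Hspa8, Calr and Hsp90b1 fell by 2.08, 1.01, 0.92, 0.75 and 0.65, Stip1, Bag1 and Cct2 rose by 0.73, 0.52 and 0.47, and Hspa5, Pdia3, Dnajb1 and Tcp1 were not called, at -0.24, -0.11, -0.15 and -0.02.

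The X chromosome stood apart from the autosomes. Of its 542 genes on the array 181 were tested, of which 155 rose, 0 fell and 26 were not called, with a median change of 3.47. Among 8511 tested autosomal genes 2367 rose and 3082 fell, and the median was -0.16. Of the X-linked genes 5 had a change below 0 and none of these an unadjusted p below 0.05. A single X-linked fall was called without the filter on the mean (Zbtb33, -0.58), after centring (Ndufa1, -0.63), without spermatid array 1 (Gm9112, -1.22) and without spermatocyte array 2 (Ndufa1, -0.90), genes chosen after their values were seen. All 4 tested Y-linked genes rose. Of the 181 genes, 80 reached 4 in the spermatids alone, so that a rise (74 of them) was close to given. The 100 that reached 4 in both cell types had 81 rises and a median change of 3.52, and 1 reached 4 in the spermatocytes alone.

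The largest rise on the X was that of Pbdc1, which had 2.95 and 5.14 in the spermatocytes and 10.60, 10.48 and 10.72 in the spermatids, a change of 6.55 ± 0.49 (SE, adjusted p 1.9e-08). H2ap, a histone H2A-related gene, had 2.69 and 2.60 against 9.01, 8.44 and 9.49 (6.34 ± 0.44 SE), and 4933400A11Rik, Rnf138rt1, Dusp21 and Ppp1r2-ps7 rose by between 5.77 and 6.24. On the X as a whole 155 of 181 tested genes rose, with a median change of 3.47. In the list of X- and Y-linked spermatid genes 3 of 12 members on the array stayed below 4 in both cell types. Of its 9 tested genes 8 rose (88.9%, against 29.1% of all tested genes), near the share of the X, with a median of 4.02. Among them were Cypt3 (4.02), Actrt1 (4.07) and Cylc1 (3.85). Ube2a, the X-linked relative of Ube2b, had 4.46 and 4.87 against 5.66, 5.07 and 5.05 and was not called (0.59 ± 0.33 SE, adjusted p 0.1276).

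To see X-linked genes that were not picked by their germ cell level, genes were taken by their level in trisomic liver alone, where the mean had to reach 6, 153 on the X and 6531 on the autosomes. Of these X-linked genes 78 stayed below 4 in both the spermatocytes and the spermatids, 60 rose, 0 fell and 15 were not called, and their median change was 0.36. Of the 6531 autosomal genes 1394 stayed below 4, 994 rose, 2222 fell and 1921 were not called, at a median change of -0.11. The median level of the X-linked set was 3.07 and 3.14 on the spermatocyte arrays and 3.74, 3.77 and 3.67 on the spermatid arrays, against 7.12, 6.80 and 7.36 on the pre-mid-pachytene arrays. The autosomal set had medians of 8.46 and 8.42, then 7.91, 8.06 and 7.90, and on the pre-mid-pachytene arrays 8.63, 8.61 and 8.63. So the spermatid arrays lay above the spermatocyte arrays for the X-linked set and below them for the autosomal set, without overlap in either. The euploid arrays gave 3.11 and 3.16, then 4.08, 3.66 and 4.18 for the X-linked set.

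**Figure D4:**
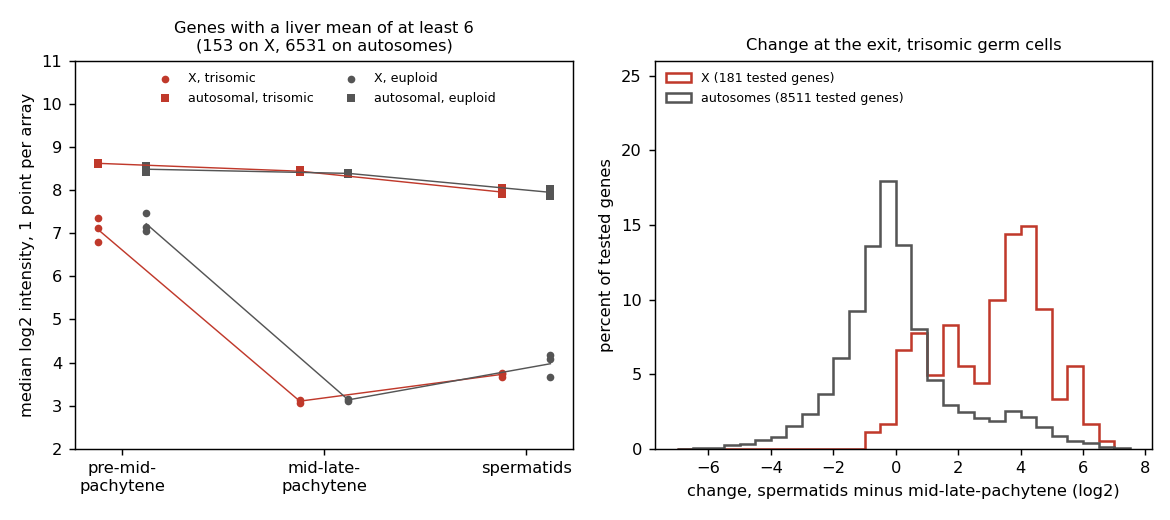
Left, median log2 intensity (y axis) of genes with a liver mean of at least 6, for 153 X-linked and 6531 autosomal genes, 1 point per array, for trisomic (red) and euploid (dark grey) germ cells, with lines through group means. Right, percent of tested genes (y axis) by change from mid-late-pachytene spermatocytes to spermatids (x axis, log2) in trisomic cells, with a median of 3.47 on the X and -0.16 on the autosomes.

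Autosomal retrocopies of X-linked genes, which are known to stand in for their parents while the X is silent, were tested beside the parents. The tested parents rose, as did 155 of all 181 tested X-linked genes. Cetn2, a centrin, had 3.27 and 3.12 against 7.63, 7.60 and 7.62 (4.42 ± 0.20 SE, adjusted p 8.5e-11). Prps1, which makes a nucleotide precursor, had 3.47 and 2.46 against 8.01, 7.98 and 7.65 (4.92 ± 0.29 SE). Cetn2 and Prps1 reached a mean of 4 in the spermatids alone, so that a rise was close to given. Utp14a, of ribosome assembly, rose by 3.77, Ubl4a by 3.17 and Cstf2, of mRNA 3' end processing, by 1.78. Pdha1, of the pyruvate dehydrogenase complex, was in the background range on all 5 arrays, from 2.13 to 2.17, and was not tested.

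The autosomal partners did not all move the same way. Cstf2t, the partner of Cstf2, had 13.20 and 13.42 against 11.44, 11.64 and 11.22 and fell by 1.88 on the log2 scale (SE 0.17, adjusted p 1.3e-07). Pgk2, the retrocopy of the X-linked Pgk1, had 14.79 and 14.74 against 15.89, 16.05 and 15.92 (1.19 ± 0.29 SE), and Ubl4b, the partner of Ubl4a, rose by 4.98. Cetn1 (-0.10 ± 0.18 SE), Prps1l1 (-0.18 ± 0.24 SE), Pdha2 (-0.33 ± 0.26 SE) and Utp14b (0.52 ± 0.27 SE) were not called, and their adjusted p ran from 0.1062 to 0.6571.

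On the trisomic segment falls outnumbered rises, as on the autosomes together. Of 252 genes on the array in the first 30 Mb of chromosome 17, 156 were tested, of which 39 rose and 59 fell, with a median change of -0.18. In the euploid cells the same 156 genes had a median of -0.21, and the median of the gene-by-gene difference between the genotypes was 0.07, against 0.01 over the autosomes. Of 281 tested genes beyond 30 Mb 79 rose and 85 fell, at a median of -0.05.

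Within the segment, Pim1, a serine/threonine kinase at chr17:29490785-29496111, rose from 4.08 and 4.42 to 9.02, 9.03 and 8.98 (4.76 ± 0.47 SE, adjusted p 2.8e-07). Mettl26, Wdr90 and Synj2, a phosphoinositide phosphatase, rose by 4.57, 4.52 and 4.47. Srsf3, a splicing factor at chr17:29032660-29043372, had a mean of 10.07 ± 0.10 (SD, n = 2) against 6.20, 6.81 and 6.58 (-3.54 ± 0.31 SE, adjusted p 8.2e-08). Bnip5, Pacsin1 and the phosphodiesterase gene Pde10a changed by -5.12, -3.41 and -3.06. All positions are on GRCm38.p6.

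Euploid cells went through nearly the same change. In them 2626 of 8727 tested genes rose (30.1%) and 3106 fell (35.6%), and the 2 sets of changes correlated with r = 0.98 over the 8712 genes, a description without a test, since genes share arrays. Genes that rose in both genotypes numbered 2339, which is 92.4% of the trisomic and 89.1% of the euploid rises, and 2741 fell in both (88.8% and 88.2%). No gene was called in opposite directions. Changes of opposite sign were seen in 609 genes, none of them with an unadjusted p below 0.05 in both genotypes. The median size of the change was 0.93 in trisomic and 0.94 in euploid cells. The list medians lay close as well, at 2.71 and 2.74 for nuclear packaging, 3.49 and 3.48 for the acrosome, and -1.14 and -1.31 for the piRNA pathway.

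A difference between the genotypes in the change itself was called by limma for 33 of 8867 tested genes (0.372%), 12 with the trisomic change higher (0.135%) and 21 lower (0.237%). An unadjusted p below 0.05 in limma was found for 397 of the 8867. That share is below 0.05, so it is no larger than if no gene differed. The median width of the 95% interval of a difference was 1.56. The count was 154 without euploid spermatocyte array 1 and 82 without euploid spermatocyte array 2, whose correlation with each other, 0.988, was lower than that of the trisomic pair. Of the 33, 20 had at least 1 of the 4 group means in the background range, and for 21 the genotypes lay farther apart in the spermatocytes than in the spermatids. No member of the 15 lists was among the 33, out of 504 tested, of which 11 had an unadjusted p below 0.05.

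Hhex, a homeobox gene at chr19:37434841-37440731 with a known role in liver and blood, had the largest of these differences. In trisomic cells it read 7.23 and 7.08 in the spermatocytes and 2.20, 2.16 and 2.13 in the spermatids, a change of -4.99. In euploid cells the spermatocyte arrays read 3.71 and 2.68 and the spermatid mean was 2.17 ± 0.04 (SD, n = 3). The difference was -3.96 ± 0.44 (SE, adjusted p 2.6e-04), and it lay in the spermatocytes. Its level in trisomic liver was 13.3.

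Mas1, which encodes a receptor of angiotensin peptides, was the single gene of the 33 in the first 30 Mb of chromosome 17, at chr17:12838841-12868150. It had 5.38 and 5.58 in trisomic spermatocytes and 9.83, 9.53 and 9.63 in trisomic spermatids. Euploid means were 4.87 ± 0.08 (SD, n = 2) and 6.70 ± 0.53 (SD, n = 3). The change of 4.18 against 1.83 differed by 2.35 ± 0.45 (SE, adjusted p 0.0362), and the call was lost without any 1 of the 5 trisomic arrays, at values from 2.25 to 2.45.

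**Figure D5:**
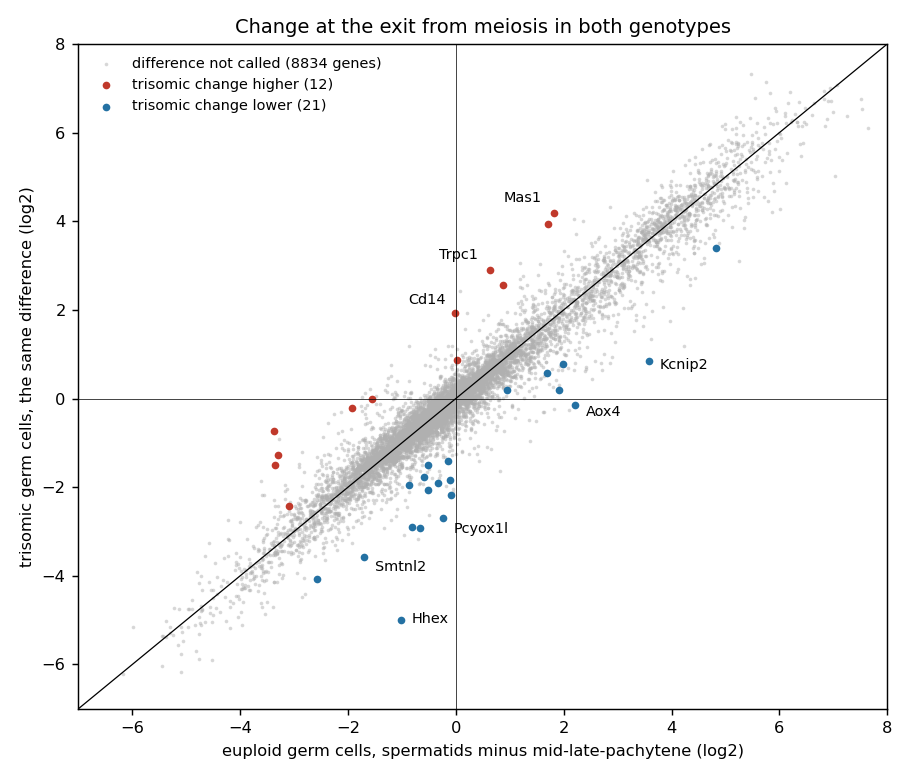
Change from mid-late-pachytene spermatocytes to spermatids in euploid (x axis) and trisomic (y axis) germ cells, in log2 units, for 8867 genes, with a line of equal change. Coloured points are the 33 genes whose changes differed between genotypes, 12 higher (red) and 21 lower (blue) in trisomic cells, and the grey points follow the line (r = 0.98 over the 8712 genes tested in trisomic cells, all points included).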

How the data were processed

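The deposited table holds 1 log2 intensity for each probe set and Affymetrix array, computed by the authors with GCRMA per the submitters' processing notes. Its version, and which arrays were normalized together, are not given in the sources used here. GCRMA corrects for background through the GC content of probes and sets arrays to a common distribution, which can hide a shift of all genes. Of 16539 probe sets 15780 carried 1 gene symbol, and 15752 were placed on GRCm38.p6. The other 759 were left out, except in 1 alternative.

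All 22 arrays entered 1 fit of 8 group means with limma 3.58.1 (R 4.3.3, statmod 1.5.0), so that comparisons share 1 moderated spread per gene, with two-sided tests and Benjamini-Hochberg adjustment at 0.05 over the tested genes. The difference between genotypes was tested as an interaction in that fit, for every gene whose mean reached 4 in any of the 4 groups. Lists are described by counts and medians. Summaries used python 3.11.15. The number of arrays limits the precision. The fit was also run on simulated data with known changes, which were fewer and smaller than here, and with noise independent between genes. That run checks the code only.

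Members and lists were chosen with earlier results of these data known. Named genes follow a rule: the 10 largest called changes in each direction without overlap of arrays, leaving out predicted models, the 5 largest where both group means reached 6, the anchors of each list with up to 4 further members, the 6 largest rises on the X, up to 4 each way in the segment, and up to 8 each way for the difference from euploid cells. Further list members named as examples were chosen after their values were seen. Of 12 marker lists, those of peritubular cells (1 tested gene, Acta2, 0.92 and not called), spermatogonia (Uchl1 and Id4, which fell by 1.25 and 3.45) and red blood cells (no tested gene) are given here only. Replicate numbers are shared between groups, and the labels do not say that they pair arrays. Deviations of same-numbered trisomic arrays from their group means correlated at -0.05 and -0.22. These values cannot show or exclude pairing. The spermatocyte deviations mirror each other, so any spermatid array correlates with both at equal size and opposite sign. Because the labels do not pair them, the arrays were not treated as paired.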

Additional observations from a re-analysis of the deposited data

Results flagged for a closer look

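For 16 named genes the change at the exit from meiosis differed between trisomic and euploid germ cells in limma's interaction test. Values are the trisomic change minus the euploid change on the log2 scale, and no explanation was tested.

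Higher in trisomic cells were Crp (2.65), Mas1 (2.35), Trpc1 (2.28), 4930519F16Rik (2.23), Lypd6b (2.03), Cd14 (1.93), Lat2 (1.86) and Frmd4a (1.73). Trpc1, a cation channel subunit, rose in trisomic cells from 2.49 and 2.48 to 5.91, 4.73 and 5.53, and the euploid change was 0.63. The X-linked 4930519F16Rik rose by 3.94 in trisomic and by 1.71 in euploid cells. Cd14, a receptor of bacterial lipid that macrophages carry, had 3.15 and 3.23 in trisomic spermatocytes and 4.50, 5.01 and 5.82 in trisomic spermatids, against euploid means of 1.86 and 1.84. Of 5 macrophage markers on the array, 4 stayed below 4 in the trisomic cells, and the median change of the 5 was 0.01. The other one, Adgre1, rose by 2.22 in trisomic and by 2.34 in euploid cells. Crp, Lypd6b, Lat2 and Frmd4a were below 4 in trisomic spermatids and near or below 4 in trisomic spermatocytes, so these differences rest on euploid spermatocyte arrays. Crp read 4.45 and 6.51 there, Lypd6b 5.76 and 5.58, Lat2 5.43 and 5.65, and Frmd4a 5.53 and 5.09.

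Lower in trisomic cells were Hhex (-3.96), Kcnip2 (-2.74), Pcyox1l (-2.46), Aox4 (-2.36), E130311K13Rik (-2.26), Papln (-2.09), Map7d1 (-2.09) and Smtnl2 (-1.87). Pcyox1l fell in trisomic cells from 5.97 and 5.63 to 2.96, 3.48 and 2.87, while the euploid spermatocyte arrays read 3.44 and 2.79. Smtnl2 had 6.67 and 6.88 in trisomic and 4.97 and 4.34 in euploid spermatocytes, with both spermatid means near 3. Kcnip2, a potassium channel partner, and Aox4, an aldehyde oxidase, differed in the spermatids: the euploid means were 6.41 ± 0.85 and 6.16 ± 0.65 (SD, n = 3), and the trisomic arrays read 3.31, 3.32 and 4.35, and 4.0, 3.25 and 3.42.

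The calls of Hhex, Lat2, Trpc1, 4930519F16Rik, Pcyox1l, Smtnl2, Papln and Frmd4a held when each of the 10 arrays was left out in turn. With the 10 arrays of both cell types alone, however, only those of Hhex and Lat2 among these held: adjusted p in limma was 0.2687 for Trpc1, 0.2716 for 4930519F16Rik, 0.1222 for Pcyox1l, 0.146 for Smtnl2, 0.5866 for Papln and 0.0907 for Frmd4a. With the replicate block Papln (0.0618) and Frmd4a (0.0549) were also lost. Leaving out 1 array ended the others, with values that kept their sign. For Crp these were 2.63 to 2.67 without any 1 spermatid array of either genotype and 2.27 without trisomic spermatocyte array 1. For Lypd6b they were 2.03 and 2.00 without trisomic spermatid arrays 1 and 2, and 1.88 and 1.94 without euploid spermatid arrays 1 and 3. For Cd14 they were 1.98 without trisomic spermatid array 2, 1.89 and 1.97 without trisomic spermatocyte arrays 1 and 2, and 1.93 without euploid spermatid array 1 or 2 or euploid spermatocyte array 2. For Kcnip2 they were -2.57 without trisomic spermatid array 1 or 2, and -2.73 and -2.75 without trisomic spermatocyte arrays 1 and 2. For Aox4 they ranged from -2.38 to -1.87, without trisomic spermatid array 2 or 3, trisomic spermatocyte array 2, euploid spermatid array 1 or euploid spermatocyte array 2. The call of Map7d1 was lost without either trisomic spermatocyte array, euploid spermatid array 2 or 3 or euploid spermatocyte array 2 (-2.20 to -1.97). That of E130311K13Rik was lost without each array except euploid spermatocyte array 1 (-2.45 to -2.03).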

How the results depend on the processing

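Quantile normalization and centring on the autosomal median moved the median change of all tested genes by -0.14 and -0.16, and the share of calls that were rises from 45.1% to 39.8% and 39.2%, so all changes are relative to that shift. Over the alternatives run, the calls at the exit numbered 4886 to 5868 (5617 in the report), with 4886 to 5506 when 1 trisomic array was left out, 2187 to 2618 rises and 2623 to 3567 falls. With 1 spermatocyte array left, its spread was assumed to be that of the other groups. The labels do not pair the arrays, and a replicate block gave 5394 calls. The X-linked rises numbered 120 to 155. The count of genes whose change differed between genotypes was least stable, at 6 with a minimum mean of 6, 7 with the 10 arrays of both cell types alone and 19 with the replicate block, and 24 to 154 when 1 array was left out, against 33. Of 2081 values of 149 named genes under the alternatives 2043 kept direction and call, 15 lost and 15 gained a call, and 8 changed sign, none of them called. These were Ldhc at 0.05 after quantile normalization, Mael at -0.09, Ddx25 at -0.04 and Ybx2 at -0.10 after centring, Ybx2 at -0.0017 after quantile normalization and from -0.03 to 0.14 (-0.00097 without spermatid array 3) and Cetn1 from -0.23 to 0.03 when 1 array was left out. The 16 named differences between genotypes kept their sign in all 263 values and lost the call in 83. The median of the energy list was -0.07 after centring. The acrosome list had 7 falls after centring, and the damage list 4 rises with a minimum mean of 6.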
